A study of Homo sapiens with 18 samples.

Results

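QKI binding was compared between cardiac progenitors at day 4 of cardiomyocyte differentiation and the pluripotent stem cells of day 0. The comparison rests on 6 of the 18 libraries of the series, the 3 anti-QKI IP libraries of each day, chosen by their titles. The authors' merged lists of reproducible peaks for days 0 and 4 were used with them. The day 8 list also helped to define loci, and the 3 day 8 IP libraries entered the fits. In eCLIP, ultraviolet light fixes proteins onto the RNA they touch in living cells. QKI is then pulled down with an antibody (the IP), and the RNA fragments it carries are sequenced and scored against an input. All libraries came from HUES6, a human embryonic stem cell line. The day 0 cells were plated in FTDA growth medium and crosslinked after overnight culture. The day 4 cells had received 1.5 uM CHIR and 1.5 ng/mL BMP4 in ITS for 24 hours, plain TS medium for 24 hours and 100 nM C59 for 48 hours. CHIR and C59 are used in such protocols to switch Wnt signalling on and then off. Both groups carry the same unmodified line, so any result is a result for 1 line. Whether replicates were separate cultures is not stated in the labels, and the p-values then measure only the spread between these libraries, which may be technical.

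QKI belongs to the STAR proteins, which bind RNA. It recognises ACUAA-like motifs, many of them in introns or in the ends of messages, and by binding beside an exon it promotes or prevents the use of that exon. It is known for regulating splicing and RNA stability in muscle, heart, vessels and glia. The question of the comparison was where QKI bound before and after the cells left pluripotency. Less QKI on a transcript, less of the transcript per cell and fewer cells that make it cannot be told apart in lists of peaks.

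Clusters of reads counted as passing peaks when the authors' values gave a fold over input of 4 or more and p of 0.001 or less. There were 15508, 12695 and 13069 such peaks in the day 0 libraries, and 3030, 7775 and 3999 in those of day 4. The groups did not overlap, and the exact permutation test gave 0.1, the smallest two-sided p that 3 against 3 libraries allow. The authors had also listed more clusters of any strength at day 0 (102085, 179932 and 187962) than at day 4 (63319, 70003 and 99552), and read depth was unknown. List lengths differed, so each comparison was also made with the 3030 strongest peaks of every library, ranked by the authors' p. This control evens the number and not the strength of the peaks. The weakest peak kept had a −log10 p of 17.1, 12.7 and 12.3 in the day 0 libraries and of 3.01, 5.91 and 3.63 in those of day 4. Day 4 replicate 1 stood apart from the other libraries of its day. Over the nucleotides under passing peaks, its Jaccard index (shared over total) was 0.125 with replicate 2 and 0.191 with replicate 3, while replicates 2 and 3 had an index of 0.274 with each other. Results that rest on this library are given with and without it.

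Titin gained QKI peaks by day 4. TTN encodes the giant spring protein of the sarcomere, whose many I-band exons are alternatively spliced. Peaks were grouped into 155 loci, each made of at least 10 reproducible peaks lying within 20 kb of the next on a strand. These peaks were pooled from the lists of days 0, 4 and 8, so a locus could qualify through a single day. The p-values given for loci, in either direction, thus describe loci picked from these data and are not an independent test. Loci were named from the known hg19 positions of genes, and exons and introns were not analysed here. The first TTN locus (chromosome 2, minus strand, 179506621 to 179558861, hg19) held 0, 0 and 0 passing peaks in the day 0 libraries and 8, 30 and 14 in the day 4 libraries. The second (179585006 to 179623624) held 0, 0 and 0 at day 0 and 1, 8 and 6 at day 4. Reproducible peaks of days 0, 4 and 8 numbered 0, 4 and 38 in the first locus and 0, 1 and 16 in the second. Both loci thus reached 10 only through day 8. No day 0 library reached the lowest day 4 value at either locus. Weak clusters were nevertheless listed in the first at day 0, numbering 1, 2 and 4, against 32, 51 and 43 at day 4. As a share of all passing peaks the first locus was at least 48.3-fold higher at day 4 and the second at least 13.9-fold, taking 3 peaks over the day 0 group as the floor. The limma log2 differences in share were 6.55 ± 0.45 (SE, adjusted p = 6.75e-41) and 4.71 ± 0.53 (adjusted p = 2.51e-16). Both also held with the equal number of peaks (log2 differences of 4.69 and 2.11, limma adjusted p = 1.63e-06 and 0.003) and with peak numbers not scaled to the library (4.96 and 3.12, limma adjusted p = 1.07e-05 and 0.00121).

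MICAL2 also held more peaks at day 4, over a short stretch. MICAL2 encodes an enzyme that oxidises actin and so takes filaments apart. Its locus (chromosome 11, plus strand, 12284050 to 12285082) is 1033 nt wide, held 0, 0 and 1 passing peaks at day 0 and held 5 in each day 4 library. Every day 4 cluster there was a passing peak, and all 15 ranked among the 3030 strongest of their libraries. The share differed by 4.52 ± 0.54 on the log2 scale (limma adjusted p = 8.32e-15), and by 3.46 with equal numbers of peaks (limma adjusted p = 7.71e-07). An unnamed locus of 48 nt on the minus strand of chromosome 6 (126301033 to 126301080) held 1, 1 and 1 passing peaks at day 0 and 4, 4 and 2 at day 4. Its log2 difference in share was 2.89 ± 0.54 (limma adjusted p = 1.21e-06), and 1.30 with equal numbers (limma adjusted p = 0.00349). It too reached 10 reproducible peaks only with those of day 4 (1, 4 and 5 at days 0, 4 and 8). The site was bound in all 6 libraries, with 37, 38 and 39 nt covered at day 0 and 46, 47 and 47 nt at day 4, so it was cut into more peaks and was not a new site. With the peak number of each library as a covariate the call ended (1.26, limma adjusted p = 0.0992). These loci, both of TTN, MICAL2 and the unnamed locus on chromosome 6, were the only 4 of the 155 that were higher at day 4 by share, by equal number and by unscaled number of peaks.

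In all, 23 of 155 loci (14.8%) took up more of the passing peaks at day 4, and 27 (17.4%) took up less, by limma at an adjusted p of 0.05. The median locus shifted by 0.14 on the log2 scale. With the equal number of peaks, 15 loci (9.68%) were higher and 80 (51.6%) lower, and the median locus shifted by -0.90. With numbers not scaled to the library, 4 (2.58%) were higher and 112 (72.3%) lower. The balance of higher and lower calls moved with the scaling, and none of the 23 loci with a higher share was called lower with the equal number of peaks. Of the 27 with a lower share, 25 were also lower with equal numbers, and all 27 held fewer peaks in every day 4 library than in any day 0 library. The latter was also true of 92 of the 105 loci without a call and of 119 of all 155. Of the 23 with a higher share, 10 were also higher with equal numbers. Peak numbers overlapped between the days at 18 of these 23 and at 31 of all 155. Without day 4 replicate 1 the counts were 11 higher and 17 lower.

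**Figure D1:**
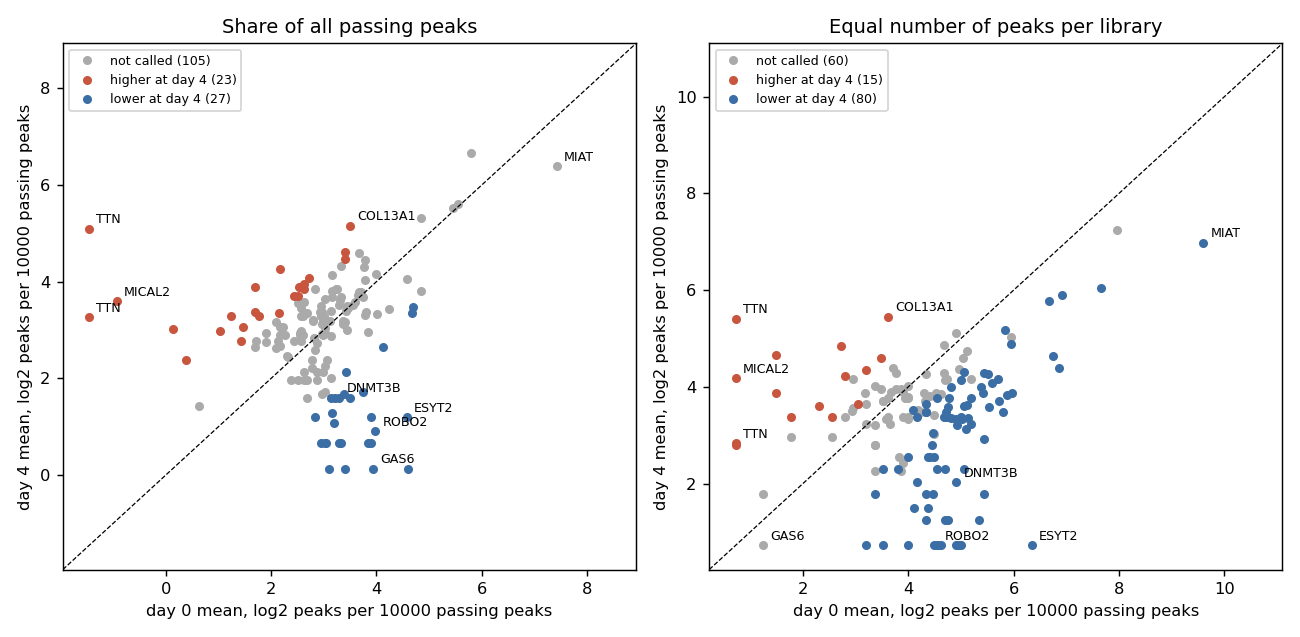
Each point is 1 of 155 loci, at its mean log2 number of peaks per 10000 passing peaks over 3 day 0 libraries (x axis) and 3 day 4 libraries (y axis), with all passing peaks (left) or an equal number per library (right); colours give the limma call and the dashed line marks equality. TTN and MICAL2 lie far above the line in both panels, and the cloud of points shifts below it with equal numbers, where 80 loci were lower at day 4.

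At loci of ROBO2, ESYT2, GAS6, B3GALT5 and SORBS2, nearly none of the passing peaks of day 0 were left at day 4. Loci were defined from reproducible peaks of these same data, and 25 of the 27 loci with a lower share had none at day 4. Such loci qualified through peaks of day 0 or day 8. Their p-values thus describe loci picked from these data and are not an independent test. ROBO2 encodes a receptor of the axon guidance ligand SLIT and had 3 loci on the plus strand of chromosome 3. The widest (76198522 to 76287701) held 35, 39 and 26 passing peaks at day 0 and 0, 0 and 0 at day 4. Clusters of any strength there numbered 95, 136 and 141 at day 0 and 0, 3 and 1 at day 4. The day 4 share was lower by at least 12-fold (log2 difference -4.47 ± 0.54, limma adjusted p = 2.68e-14), and it was also lower with equal numbers (-4.19, limma adjusted p = 1.11e-09). The second (75993511 to 76072287) went from 26, 19 and 19 passing peaks to 0, 2 and 0, and the narrowest (76471670 to 76474424) from 10, 10 and 10 to 0, 1 and 0. The narrowest kept its call under most settings, but not with adjoining peaks merged into footprints or with a pseudocount of 2 (limma adjusted p = 0.269 and 0.196). No passing peak was found at any of these 3 loci in the day 8 libraries.

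ESYT2, which encodes a tether between the endoplasmic reticulum and the plasma membrane, lost nearly all passing peaks of a dense locus (chromosome 7, minus strand, 158543025 to 158575873). It held 36, 33 and 28 passing peaks at day 0 and 0, 1 and 1 at day 4 (log2 difference in share -3.38 ± 0.46, limma adjusted p = 1.29e-11), with equal numbers -5.62 (limma adjusted p = 1.28e-05). Clusters of any strength there went from 64, 62 and 66 at day 0 to 7, 9 and 9 at day 4. The day 8 libraries held 28 passing peaks there in sum. GAS6 encodes a ligand of the TAM receptor kinases. Its locus (chromosome 13, minus strand, 114553637 to 114564979) held 20, 27 and 16 passing peaks at day 0 and 0, 0 and 0 at day 4 (-3.80 ± 0.50, limma adjusted p = 2.26e-12). GAS6 clusters of any strength went from 25, 33 and 24 at day 0 to 3, 4 and 10 at day 4. In the day 8 libraries the locus held 34 passing peaks in sum, a contrast not tested here. The GAS6 peaks were weak, since only 1 of the 63 day 0 peaks ranked among the 3030 strongest, and with equal numbers the call ended (-0.53, limma adjusted p = 0.258). B3GALT5, a galactosyltransferase gene of glycolipid synthesis, went from 22, 19 and 17 passing peaks to 0, 1 and 0 (chromosome 21, plus strand, 40994871 to 41038963; -3.18 ± 0.54, limma adjusted p = 1.21e-07).

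Of the sarcomere and adapter genes listed for this tissue, SORBS2 moved the other way from TTN. SORBS2 encodes an adapter protein of the Z-disc and of cell adhesions. Its locus (chromosome 4, minus strand, 186562496 to 186606115) held 13, 15 and 12 passing peaks at day 0 and 0, 1 and 0 at day 4 (log2 difference -2.67 ± 0.47, limma adjusted p = 2.98e-07; -2.81 with equal numbers, limma adjusted p = 4.02e-06). The day 8 libraries held 77 passing peaks there in sum, a contrast not tested here. PDLIM5, another Z-disc adapter, had few peaks at both days (1, 2 and 2 against 0, 2 and 1; chromosome 4, plus strand, 95502992 to 95541250) and no called difference (0.82 ± 0.53, limma adjusted p = 0.25). ACTN4, which encodes a non-muscle crosslinker of actin and was chosen after its values were seen, went from 18, 26 and 17 passing peaks to 1, 1 and 0 within 2706 nt (chromosome 19, plus strand, 39202176 to 39204881; limma adjusted p = 1.21e-06).

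Of the named loci, those of DNMT3B, ESRP1 and QKI belonged to genes listed as markers of pluripotent cells or as splicing regulators. Loci left unnamed were not matched to these lists. DNMT3B encodes a de novo DNA methyltransferase that is abundant in pluripotent cells. Its locus (chromosome 20, plus strand, 31381431 to 31393697) held 14, 12 and 13 passing peaks at day 0 and 0, 3 and 1 at day 4 (-1.70 ± 0.54, limma adjusted p = 0.00939). That call ended without day 4 replicate 1 (-1.26, limma adjusted p = 0.118) and without day 0 replicate 2 or 3 (limma adjusted p = 0.0517 and 0.0558). ESRP1 encodes an epithelial splicing regulator. Its locus (chromosome 8, plus strand, 95682531 to 95710513) went from 12, 13 and 11 to 0, 3 and 0 (-2.11 ± 0.54, limma adjusted p = 0.000803). With equal numbers the differences were -2.89 for DNMT3B and -3.77 for ESRP1 (limma adjusted p = 0.00146 and 1.11e-09). The DNMT3B call also ended by covered nucleotides or merged footprints (limma adjusted p = 0.389 and 0.152). The day 4 peaks of DNMT3B came from replicates 2 and 3 and those of ESRP1 from replicate 2 alone, and all lay on day 0 peaks.

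The QKI transcript itself held peaks at both days. Its locus (chromosome 6, plus strand, 163970877 to 163995212) held 9, 8 and 7 passing peaks at day 0 and 3, 10 and 7 at day 4, so the numbers overlapped. As a share of all passing peaks it was higher at day 4 (0.134% ± 0.0383 against 0.0582% ± 0.00473, SD, n = 3; log2 difference 1.21 ± 0.44, limma adjusted p = 0.0213). The difference was 0.65 with equal numbers (limma adjusted p = 0.0749) and turned to -0.38 with unscaled numbers (limma adjusted p = 0.334). The call also ended with the replicate number as a block and without day 0 replicate 1, 2 or 3 or day 4 replicate 3 (limma adjusted p between 0.0511 and 0.109). Of the day 4 peaks there, 75.0% lay on a day 0 peak.

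**Figure D2:**
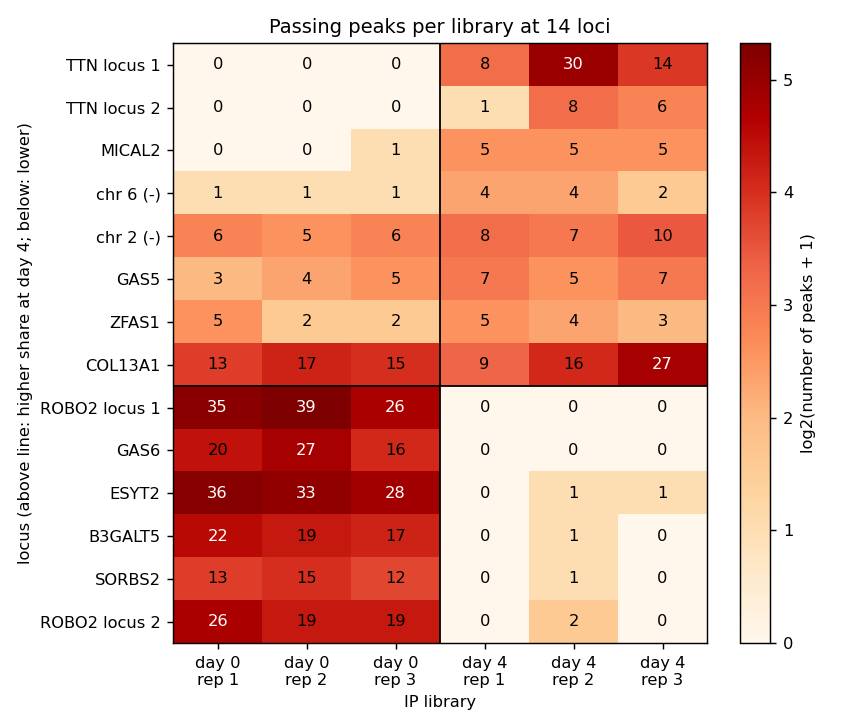
Number of passing peaks in each of the 6 IP libraries (columns) at 14 of the 16 loci with the smallest p in each direction (rows), with the number printed in each cell and the colour giving log2 of the number plus 1. Loci above the line were called higher in share at day 4 and those below it lower; both TTN loci, and the ROBO2 and GAS6 loci with 0 peaks in 3 libraries, changed from empty to filled or the reverse.

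Several of the loci called higher at day 4 were compact sites that were also filled at day 0. GAS5 and ZFAS1, both host genes of small nucleolar RNAs, held 3, 4 and 5 against 7, 5 and 7 passing peaks (chromosome 1, minus strand, 173835450 to 173836882) and 5, 2 and 2 against 5, 4 and 3 (chromosome 20, plus strand, 47896867 to 47897298). Their shares differed by 2.20 ± 0.49 and 2.03 ± 0.53 on the log2 scale (limma adjusted p = 7.21e-05 and 0.00082), but with equal numbers neither passed (0.68 and 0.69, limma adjusted p = 0.157 and 0.211). A locus on the minus strand of chromosome 2 (133012223 to 133013174, unnamed) held 6, 5 and 6 peaks at day 0 and 8, 7 and 10 at day 4, and it was higher with equal numbers too (2.14, limma adjusted p = 0.00299). The call ended with unscaled numbers (0.51, limma adjusted p = 0.112) and with the peak number as a covariate (0.22, limma adjusted p = 0.742). Of the 23 loci with a higher share, 13 were narrower than 2 kb and the median width was 1767 nt. The corresponding values were 1 of 27 and 24302 nt for the loci with a lower share, and 49 of 155 and 8223 nt for all loci.

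COL13A1 encodes a transmembrane collagen and was higher in share with overlapping numbers. Its locus (chromosome 10, plus strand, 71665759 to 71676846) held 13, 17 and 15 passing peaks at day 0 and 9, 16 and 27 at day 4. The numbers overlapped, and without scaling to the library they differed by 0.08 on the log2 scale (limma adjusted p = 0.834). The difference in share was 1.67 ± 0.44 (limma adjusted p = 0.000959), and without day 4 replicate 3 it was 1.20 (limma adjusted p = 0.056). With equal numbers it was 1.84 (limma adjusted p = 0.00422), and with the peak number of each library as a covariate 0.44 (limma adjusted p = 0.611). The equal number of 3030 is the whole list of day 4 replicate 1 and the top of much longer day 0 lists, so entry among the 3030 does not show a rise in rank. ADGRD1, VCAN and OBSL1, picked after their values were seen, likewise held overlapping numbers of peaks. ADGRD1, an adhesion receptor gene, held 11, 8 and 7 against 6, 10 and 6 passing peaks. VCAN, the gene of the matrix proteoglycan versican of the early heart, held 6, 9 and 6 against 4, 8 and 5. OBSL1, a relative of the sarcomere gene obscurin, held 2, 1 and 1 against 1, 3 and 2. Their shares were higher at day 4 (1.35, 1.28 and 2.00, limma adjusted p = 0.0102, 0.0162 and 0.00129), but their unscaled numbers differed by -0.24, -0.31 and 0.41 and passed no test (limma adjusted p = 0.38, 0.32 and 0.322).

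MIAT, a nuclear long noncoding RNA, was the fullest locus at day 0. Its locus (chromosome 22, plus strand, 27065918 to 27070593) is 4676 nt long. It held 230, 240 and 236 passing peaks at day 0 and 30, 38 and 47 at day 4, and every cluster listed there was a passing peak among the strongest 3030 of its library. The share was 1.73% ± 0.215 of passing peaks at day 0 and 0.885% ± 0.355 at day 4 (SD, n = 3; log2 difference -1.04 ± 0.49, limma adjusted p = 0.0891), and with equal numbers the locus was lower at day 4 (-2.63, limma adjusted p = 1.06e-05). Counted as covered nucleotides or as merged footprints the share differed in the opposite direction without passing the test (0.99 and 0.77, limma adjusted p = 0.147 and 0.2). All day 4 peaks of MIAT lay on day 0 peaks, and 81.7% of the day 0 peaks lay on a day 4 peak. The day 0 peaks were more numerous and covered more of the locus, with 2471, 2548 and 2614 nt at day 0 against 1458, 1487 and 1890 nt at day 4.

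At other full loci no difference in share was called. PLEKHG4B, an exchange factor gene, held 65, 67 and 59 passing peaks at day 0 and 18, 24 and 23 at day 4 (chromosome 5, plus strand, 155916 to 168542; log2 difference in share 0.05 ± 0.45, limma adjusted p = 0.952; with equal numbers -1.61, limma adjusted p = 1.40e-05). TPM1, the gene of the actin filament protein tropomyosin with well-studied alternative exons, held 37, 47 and 34 against 12, 21 and 22 (chromosome 15, plus strand, 63353314 to 63362084; 0.48 ± 0.44, limma adjusted p = 0.443; with equal numbers -1.01, limma adjusted p = 0.00931). An unnamed locus of chromosome 6 (plus strand, 10778692 to 10796329) held 59, 63 and 57 against 14, 24 and 25 (0.06 ± 0.46, limma adjusted p = 0.947; with equal numbers -0.90, limma adjusted p = 0.00167). The plus strand of the mitochondrial genome held 86, 80 and 62 against 42, 49 and 45 (0.86 ± 0.50, limma adjusted p = 0.178), and its direction turned with equal numbers (-0.72, limma adjusted p = 0.103) and with unscaled numbers (-0.73, limma adjusted p = 0.08). Of the mitochondrial day 4 peaks on that strand, 94.9% lay on day 0 peaks.

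QKI peaks stood closer together at day 0 than at day 4. Of the passing peaks, 59%, 55.8% and 53.7% had another within 1 kb on the strand in the day 0 libraries, against 35.1%, 33.4% and 35.5% in the day 4 libraries. The groups did not overlap (56.2% ± 2.69 against 34.7% ± 1.14, SD, n = 3; two-sided exact permutation p = 0.1, adjusted 0.3 over 3 measures). With equal numbers of peaks the values were 70.7% ± 4.49 against 37.3% ± 2.07 (exact permutation p = 0.1). Without the MIAT locus they were 55.4% ± 2.81 and 34.1% ± 0.91. With adjoining peaks merged into footprints they were 48.6% ± 2.98 and 27.7% ± 0.416. Peak width did not differ beyond the spread, with medians of 69, 68 and 68 nt at day 0 and 60, 67 and 70 nt at day 4 (exact permutation p = 0.7, adjusted 0.7). The median authors' log2 fold was 4.32, 4.02 and 4.12 at day 0 and 3.51, 4.31 and 3.94 at day 4, with overlap (exact permutation p = 0.4, adjusted 0.6).

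**Figure D3:**
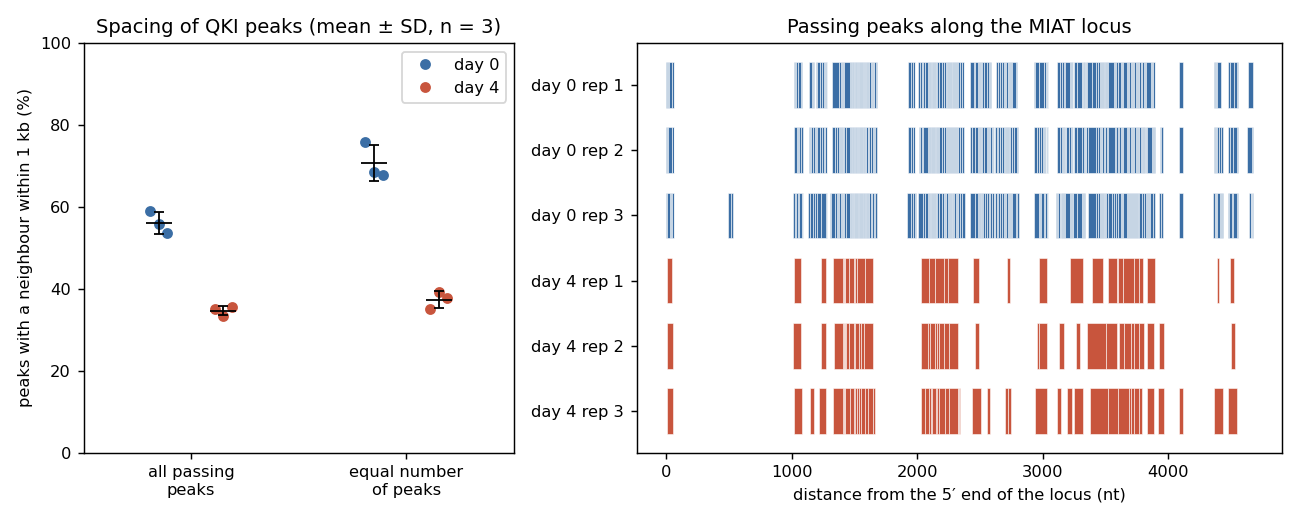
Left, the percent of passing peaks with another passing peak within 1 kb on the same strand, for all passing peaks and for 3030 per library; points are libraries and bars the mean ± SD of 3. Right, the passing peaks of each library along the 4676 nt of the MIAT locus, drawn as bars with thin white edges (pale stretches hold many narrow peaks), by distance from its 5′ end; the day 4 peaks fall on stretches that hold many adjoining peaks at day 0.

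Where peaks of different libraries overlapped, their ends agreed less well between the days than within a day. Between day 0 libraries, 50.6% to 53.7% of overlapping pairs of peaks had 5′ ends within 10 nt of each other, and between day 4 libraries 50.2% to 54.3%. Between a day 0 and a day 4 library the share was 42.9% to 47.1%, below every pair within a day. The mean difference was 7.08 percentage points, the highest of the 10 ways to split the 6 libraries (one-sided exact permutation p = 0.1, the smallest possible). With equal numbers it was 13.4 points, with 3′ ends 7.31, and without day 4 replicate 1 it was 6.28. The median distance between 5′ ends was 9 to 10 nt within days and 12 to 14 nt between them. Every overlapping pair was counted, so a peak lying on several narrow peaks entered more than once. The measure was not repeated without MIAT or with merged footprints. Whether the gap reflects how dense loci are cut into peaks was not tested.

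Libraries of a day also shared more covered sequence with each other than with the other day, chiefly at day 0. The mean Jaccard index was 0.399 within day 0 (0.376 to 0.413), 0.197 within day 4 (0.125 to 0.274) and 0.152 between days (0.0684 to 0.239). With equal numbers the means were 0.557, 0.264 and 0.212. Within-day pairs exceeded between-day pairs by 0.146 with all passing peaks and by 0.198 with equal numbers (one-sided exact permutation p = 0.1 for each, the smallest possible). At day 4 the range within the day overlapped that between days, since day 4 replicate 2 was as close to the day 0 libraries (0.205 to 0.239) as to the other day 4 libraries (0.125 and 0.274).

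Most reproducible day 4 peaks lay on sites also bound at day 0, where the lists were longer. Among all passing peaks of day 4 replicates 1, 2 and 3 this was less so. Of these, 38.7%, 44.6% and 56.0% passed in 3 of 3 day 0 libraries, and 46.9%, 31.9% and 26.3% in none. Of the 947 reproducible peaks of day 4, 787 (83.1%) lay on passing peaks of 3 of 3 day 0 libraries and 876 (92.5%) a cluster of any strength in 3 of 3. In 60 cases (6.34%) no day 0 library had a passing peak, and in 31 (3.27%) none had a cluster. Of the 7778 reproducible day 0 peaks, 1398 (18%) passed in 3 of 3 day 4 libraries, 3320 (42.7%) in none, and 1656 (21.3%) had no cluster at day 4. The day 4 list was divided into 4 equal groups by the authors' fold. From the strongest to the weakest, 94.9%, 90.3%, 83.5% and 75.0% of their peaks overlapped the day 0 list. For day 0 peaks overlapping the day 4 list these shares were 41.6%, 7.97%, 4.99% and 6.79%. When the day 0 list was cut to its 947 strongest peaks, 61.0% of these overlapped the day 4 list, while 35.7% of the day 4 list overlapped them.

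The same order was seen in every library when its passing peaks were divided into 4 equal groups by the authors' p. In the strongest group, 57.4%, 77.2% and 80.4% of the peaks of day 4 replicates 1, 2 and 3 passed in 3 of 3 day 0 libraries. In the weakest group these shares were 25.5%, 20.9% and 34.3%. For the day 0 libraries the strongest group gave 30.4%, 36.1% and 34.5% and the weakest 0.593%, 1.01% and 0.857%. Day 4 replicate 1 had the lowest value of its day in the strongest group.

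**Figure D4:**
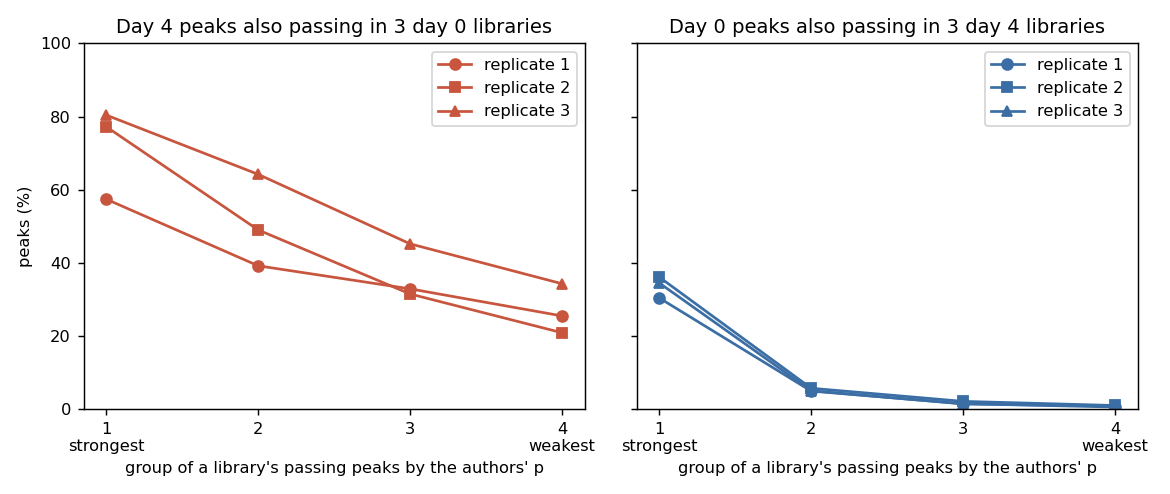
Percent of each library's passing peaks that also passed in 3 of 3 libraries of the other day (y axis), by 4 equal groups of the library's own peaks ranked by the authors' p (x axis, strongest first); lines are the 3 replicates. Day 4 peaks (left) start at 57.4% to 80.4%, and day 0 peaks (right) drop from 30.4% to 36.1% in the first group to 4.95% to 5.73% in the second.

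Regions bound in every library of a day and in none of the other were mostly day 0 regions, and this difference changed with the number of peaks. Merging the passing peaks of the 6 libraries gave 23528 regions. Of these, 2697 (11.5%) were bound in 3 of 3 day 0 and 0 of 3 day 4 libraries, and 79 (0.336%) the other way round. The 79 became 387, 149 and 127 without day 4 replicates 1, 2 and 3, when 2 of 2 day 4 libraries were enough. Another 823 were bound in 6 of 6. Of the 1001 regions bound in 3 of 3 day 4 libraries, 82.2% were bound in 3 of 3 day 0 libraries. With no cluster of any strength allowed in the other day, 1232 (5.24%) and 30 (0.128%) remained. Among the 6400 regions of the equal-number lists, 379 (5.92%) were bound at day 0 alone and 232 (3.62%) at day 4 alone, and 493 in 6 of 6. Without day 4 replicate 1 there were 400 regions at day 0 alone and 649 at day 4 alone, but day 4 regions then had to be bound in 2 libraries and day 0 regions still in 3. Leaving out day 4 replicate 2 or 3 in the same way gave 357 and 312 day 4 regions. Most of the latter kind held a weaker peak at day 0. Of the 232, 67 (1.05% of 6400) had no day 0 passing peak of any rank, against 281 (4.39%) for day 0 regions without one at day 4.

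**Figure D5:**
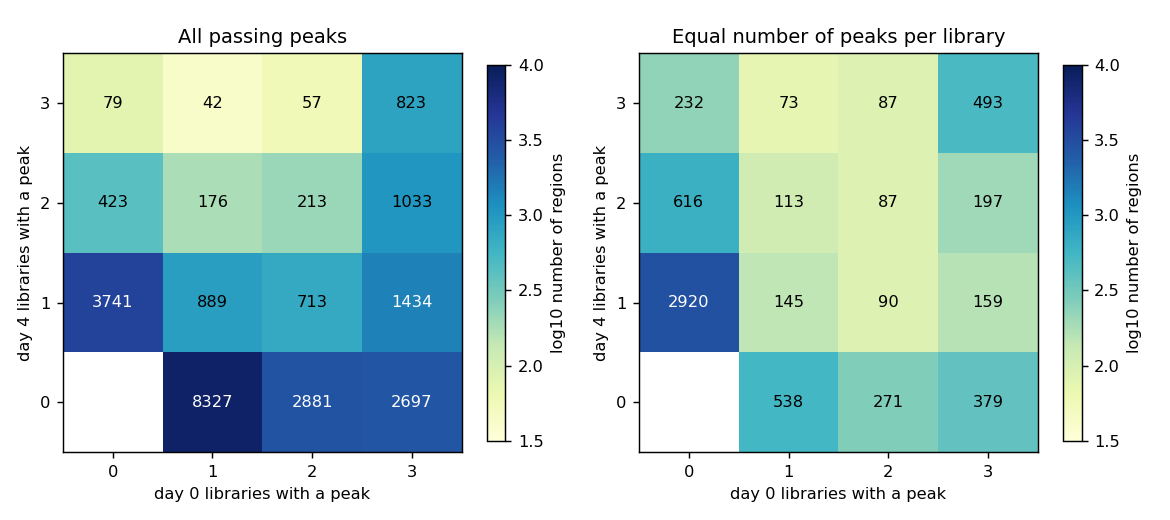
Number of regions by how many day 0 libraries (x axis) and day 4 libraries (y axis) held a passing peak there, for all passing peaks (left, 23528 regions) and 3030 peaks per library (right, 6400 regions); colour gives log10 of the number. The lower right corner (day 0 alone, 2697) exceeds the upper left (day 4 alone, 79) on the left, and on the right they are 379 and 232.

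A few single sites were found at day 4 without any cluster at day 0. Of the 947 reproducible day 4 peaks, 27 (2.85%) passed in 3 of 3 day 4 libraries and had no day 0 cluster. The 5 with the highest authors' fold, 1 per locus, lay in FYB2, NRG2, HAS2, LIX1 and TTN, all on the minus strand. The FYB2 peak (chromosome 1, 57237264 to 57237353) had log2 folds over input of 5.79, 7.01 and 6.85 in the 3 day 4 libraries, and it passed in every day 8 library as well. The NRG2 peak, in the gene of a neuregulin ligand of ERBB receptors (chromosome 5, 139396675 to 139396727), had 5.79, 6.93 and 5.02 and passed in 1 day 8 library. HAS2 makes the hyaluronan of the early heart's matrix. Its peak (chromosome 8, 122638416 to 122638457) had 4.35, 7.11 and 5.83. The LIX1 peak (chromosome 5, 96456316 to 96456425) had 4.79, 6.35 and 6.25. The TTN peak (chromosome 2, 179530188 to 179530242) had 4.51, 6.0 and 5.44. HAS2 and TTN passed in 3 of 3 day 8 libraries and LIX1 in 2.

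Day 0 sites that passed in 3 of 3 day 0 libraries and had no day 4 cluster were more numerous, 1545 of 7778 (19.9%). The strongest by the authors' fold was a 2-nt peak of MIAT (chromosome 22, plus strand, 27069272 to 27069273), with log2 folds of 9.50, 10.54 and 10.66. Next came ECPAS, a proteasome adapter gene (chromosome 9, minus strand, 114149824 to 114149903), with 9.08, 8.08 and 8.47. This peak passed again in all 3 day 8 libraries (6.82, 7.20 and 7.11). The others were a 17-nt peak of PLEKHG4B (chromosome 5, plus strand, 165656 to 165672; 8.74, 8.40 and 7.50), a peak of the phospholipid flippase gene ATP11A (chromosome 13, plus strand, 113499616 to 113499678; 7.77, 6.93 and 8.72) and one of FOXL2NB (chromosome 3, plus strand, 138669662 to 138669745; 8.73, 8.00 and 6.03). The peaks of MIAT, PLEKHG4B, ECPAS and ATP11A lie in densely covered loci that were bound at day 4, so they mark a position without a cluster and not a lost locus. The ECPAS locus of 886 nt held 21, 19 and 16 passing peaks at day 0 and 3, 5 and 5 at day 4, and the ATP11A locus of 1280 nt held 32, 37 and 28 and then 5, 10 and 7.

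Some of the strong sites were bound at both days. Joining the lists gave 6651 footprints, of which 602 were in both, 5932 in the day 0 list alone and 117 in the day 4 list alone, and 568 of the shared ones passed in 6 of 6 libraries. The 5 with the highest lower fold of the days began with a footprint of chromosome 17 (plus strand, 18965361 to 18965442), in a region of U3 small nucleolar RNA genes. Its log2 folds were 10.49, 10.20 and 10.82 at day 0 and 10.88, 10.07 and 11.23 at day 4. These genes are near-identical copies, and which copy carries the binding is uncertain. MIAT (27067925 to 27068258) had 12.44, 12.11 and 12.89 and then 9.17, 10.52 and 8.74. NKD1, a gene of an inhibitor and target of Wnt signalling (chromosome 16, plus strand, 50613649 to 50614048), had 9.43, 8.48 and 9.78 and then 8.15, 8.86 and 7.80. An unnamed footprint of chromosome 6 (plus strand, 10787262 to 10787449) had 9.34, 9.62 and 7.51 and then 8.50, 8.60 and 8.56. TTF2, a transcription termination factor gene (chromosome 1, plus strand, 117645311 to 117645475), had 8.58, 8.31 and 8.70 and then 7.23, 7.88 and 8.79. Ranges of the days overlapped at all of these but MIAT. These folds are the authors' and describe each library's own list.

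Differences were also called for whole chromosome strands. Of 48 chromosome strands, 6 (12.5%) made up a larger part of a library's passing peaks at day 4 and 4 (8.33%) a smaller part by limma. The minus strand of chromosome 2, which carries TTN, rose from 2.79% ± 0.0681 to 3.93% ± 0.600 (SD, n = 3; log2 difference 0.48 ± 0.12, limma adjusted p = 0.0287). The plus strand of chromosome 3, with ROBO2, fell from 4.66% ± 0.0446 to 3.33% ± 0.257 (-0.48 ± 0.10, limma adjusted p = 0.0245). The plus strand of chromosome 22, with MIAT, fell from 2.62% ± 0.225 to 1.49% ± 0.383 (-0.84 ± 0.22, limma adjusted p = 0.0316). No chromosome strand was called when any day 0 library or day 4 replicate 3 was left out, with 5 to 7 in each direction at an unadjusted p under 0.05. Plus-strand peaks made up 55.6% ± 0.278 at day 0 and 53.4% ± 0.875 at day 4 with no overlap (exact permutation p = 0.1), and with equal numbers 61.6% ± 0.655 and 54.1% ± 0.418. Part of this came from MIAT. Without its locus the values were 54.9% ± 0.192 and 53.0% ± 0.773, and with equal numbers 58.3% ± 0.739 and 53.5% ± 0.413. The share of mitochondrial peaks had no settled direction. It was 0.584% ± 0.0748 at day 0 and 1.13% ± 0.403 at day 4 over all passing peaks, but 2.64% ± 0.421 and 1.62% ± 0.132 with equal numbers.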

How the data were processed

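The deposited files were peak lists on hg19, per the file headers, with 1 list of clusters per IP library and 1 merged list per day of peaks enriched 4-fold and reproducible by IDR among its 3 libraries. Each peak carried the authors' log2 fold over input and −log10 p-value of enrichment, the latter capped at 400, per the file headers. The deposited score column was not used. Cutadapt, STAR and SAMtools appear in the submitters' processing notes. The peak caller was not given in the sources used here. Read depth is unknown, and the 9 input libraries were not analysed here. No reads were recounted, so the numbers describe lists that depend on depth.

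Passing peaks of the 6 libraries, and of the 3 day 8 IP libraries in the fits, were counted per locus and per chromosome strand. Log2 of (peaks + 0.5) over (passing peaks + 1) × 10000 was fitted with limma 3.58.1 (lmFit, eBayes with a trend for loci) in R 4.3.3 over 9 libraries, with Benjamini-Hochberg adjustment. With infinite prior degrees of freedom, loci have the trend's variance, on which very small p-values depend. Single values per library were compared by exact permutation tests. The fits were also run on simulated peak numbers with known changes, a check of the fitting step that does not cover the selection of loci. Same-numbered libraries did not deviate together (correlations of -0.0399, -0.0795 and 0.0241), so replicate numbers were not used as pairs. The equal-number control kept 3030 peaks per library. Wilson 95% intervals of shares (scipy 1.17.1) cover counting error only.

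The text names the 8 loci of smallest p per direction, the 5 fullest loci per day, 5 peaks per direction without a cluster in the other day, 5 shared footprints, and members of the gene lists that formed a locus, apart from a few loci that are not reported here. Members and lists were chosen with earlier results of these data known. No hg19 annotation was used. The 48 gene names come from known hg19 positions, and each was checked against the GRCh38.p14 RefSeq table for chromosome, a distance under 3 Mb and, for the 36 with a listed strand, the strand. The gene lists could not be applied to peaks outside the named loci, and no sequences were read.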

Additional observations from a re-analysis of the deposited data

How the results depend on the processing

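Read depth is unknown, and the shorter day 4 lists limit what absence at day 4 can mean. Several results kept their direction under all alternatives run for them. These were the fewer passing peaks at day 4, the closer spacing at day 0, the similarity within days and the offset of peak ends. Their exact p-values cannot fall below 0.1 with 3 libraries a day, so these tests could not separate the settings. Paired by replicate number (replicate block), the log2 ratio of passing peaks was -1.59 (exact sign-flip p = 0.25, the smallest possible), 17 loci were higher and 25 lower, and 5 and 3 chromosome strands. The difference in median width was -2.67 nt and turned to 0.167 nt without day 4 replicate 1 (range -4.83 to 0.167).

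For the overlap of the lists, a reciprocal overlap of 50% gave 70.2% of day 4 and 8.58% of day 0 peaks, equal list lengths 35.7% and 61.0%, and for day 0 peaks a window of 100 nt gave 19.0% and merged footprints 10.4%. Regions bound at day 0 alone and day 4 alone numbered 379 and 232 with equal numbers, 224 and 134 with equal numbers by fold, 1232 and 30 with no cluster in the other day, and 133 and 27 with both, the last chosen after seeing the data. With equal numbers and no passing peak of any rank, 281 and 67 were left. Leaving out a library gave 88 to 387 day 4 regions, against 79 with all, and 2733 to 3927 day 0 regions. The 387 came without day 4 replicate 1, and the numbers without its replicates 2 and 3 were 149 and 127.

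Loci higher and lower at day 4 numbered 15 and 80 with equal numbers, 39 and 41 with equal numbers centred on each library's median locus, 38 and 36 with centred shares, 30 and 10 with a pseudocount of 2, 37 and 22 by covered nucleotides, 39 and 19 by merged footprints, 22 and 13 joined within 5 kb, 78 and 91 of 491 loci of at least 5 peaks, 5 and 6 of 35 loci of at least 20, 21 and 56 of 262 windows of 100 kb, and 3 and 33 with each library's peak number as a covariate. Added after seeing the data, unscaled numbers gave 4 and 112, equal numbers with the replicate block 14 and 78, and windows with equal numbers 23 and 112. Leaving out a library gave 11 to 30 higher and 17 to 27 lower. For chromosome strands, equal numbers gave 12 higher and 6 lower, and leaving out a library 0 to 7 and 0 to 8.

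Among the loci named, these turned where a call was made under either setting, with the cause not tested. GAS5 was -0.06 with the covariate, GAS6 0.41 with equal numbers centred, QKI -0.38, ADGRD1 -0.24 and VCAN -0.31 unscaled. PLEKHG4B, at 0.05 by share, was -1.61 with equal numbers, with or without the replicate block, -0.68 with these centred, -1.29 with the covariate and -1.54 unscaled. The unnamed locus of chromosome 6 was -0.90 with equal numbers, with or without the block, and -1.53 unscaled. TPM1 was -1.01 with equal numbers, with or without the block, and -1.12 unscaled. Without a call under either setting, PDLIM5 turned to -0.77 unscaled, and the values of MIAT and of the mitochondrial plus strand are given above.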
